A study of Mus musculus and Homo sapiens with 22 samples.

Results

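The 9 genes described here make glucose in the liver or respond to it: the gluconeogenic enzymes Pck1, Pcx, Fbp1 and G6pc, the transcriptional coactivator Ppargc1a, the transporter Slc2a2, Gckr, a regulator of glucose phosphorylation, the liver pyruvate kinase Pklr and the transcription factor Mlxipl. They were chosen by name, as 9 of 21911 mouse protein-coding genes, with PC, G6PC1 and the other human counterparts taken from 20007 human genes. Every PROX1 peak whose summit lay in the gene body or within 50 kb of it was taken from 3 lists of CUT&RUN peaks. This gave 216 of 105059 peaks, made up of 135 of the 50159 liver peaks, 50 of the 40531 peaks of mouse embryonic fibroblasts (MEFs) and 31 of the 14369 peaks of Hep3B cells. CUT&RUN tethers a nuclease to chromatin through an antibody and sequences the DNA fragments it releases. The series asked where PROX1, a homeodomain transcription factor of hepatocytes, sits on chromatin, and held 22 samples in 6 groups.

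Livers came from untreated wild-type C57BL/6J mice of 2 to 3 months and were probed for endogenous PROX1 (n = 5) or with rabbit IgG (n = 5). MEFs were wild-type C57BL/6N cells of stage E13.5, transduced with FUW-rtTA and tetO-FLAG-mmProx1 lentivirus and kept for 2 days in doxycycline at 2 µg/ml, and were probed with a FLAG antibody (n = 3) or IgG (n = 3). Hep3B, an established human hepatocellular carcinoma line, carried a doxycycline-inducible PROX1 construct (pLIX-Puro-hsPROX1) as a puromycin-selected stable line, received the same doxycycline dose for 2 days, and was probed with FLAG (n = 3) or IgG (n = 3). All cultures, the IgG samples included, therefore overexpressed the factor. Tissue, antibody and origin of PROX1 changed together between liver and the cultures, so their parts in any difference cannot be told apart. Liver nuclei were prepared from whole homogenised tissue, and no expression was measured, so the labelled cell types could not be checked against marker genes. Each list pools the antibody samples of 1 group. Depth per sample is therefore unknown, no replicate spread exists for any value below, and no p-value is given between lists. Peaks were ranked within their own list by the −log10 p of the summit, and the strength of a peak is given as the percentage of that list with a lower value. Intervals are 95% Wilson intervals that cover counting error only. They treat peaks as independent although many share a gene window, so they may be too narrow and are not a test.

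Gluconeogenesis turns lactate, amino acids and glycerol into glucose during fasting. Pyruvate carboxylase and phosphoenolpyruvate carboxykinase start the route, fructose bisphosphatase and glucose-6-phosphatase close it, and glucagon, glucocorticoids and PGC-1α switch the genes on while insulin switches them off. After a meal glucose enters hepatocytes through GLUT2, is phosphorylated under the control of a regulatory protein, the product of Gckr, and raises glycolytic genes such as Pklr through the factor ChREBP, the product of Mlxipl.

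The DNA under 8 summits is shown because these peaks carry the results below: promoter peaks of G6pc, Pck1, Pcx and PC, the strongest peak of the whole set, a liver peak with 2 matches to a PROX1 site, and sites held by both liver and MEFs. Each run is the summit with 50 bases on each side, read 5′ to 3′ on the strand of the gene from mm10 or hg38. Capitals mark matches to any of 9 searched motifs, and a run without capitals holds none of them. Up to 2 mismatches were allowed for PROX1 and 1 for HNF4, CREB and CTCF.
G6pc promoter in liver (mm10 chr11:101367343-101367443, + strand): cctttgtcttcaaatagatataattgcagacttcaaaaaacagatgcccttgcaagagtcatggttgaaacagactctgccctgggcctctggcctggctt
Pck1 promoter in liver (mm10 chr2:173152675-173152775, + strand): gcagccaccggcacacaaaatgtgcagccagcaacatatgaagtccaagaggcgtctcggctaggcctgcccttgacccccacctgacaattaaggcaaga
Slc2a2 intron in liver (mm10 chr3:28722789-28722889, + strand): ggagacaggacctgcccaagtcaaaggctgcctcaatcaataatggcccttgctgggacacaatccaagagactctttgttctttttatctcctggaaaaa
Mlxipl intron in liver (mm10 chr5:135118732-135118832, + strand): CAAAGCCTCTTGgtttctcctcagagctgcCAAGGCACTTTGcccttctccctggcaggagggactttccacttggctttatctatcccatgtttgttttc
Pcx promoter in MEFs (mm10 chr19:4510324-4510424, + strand): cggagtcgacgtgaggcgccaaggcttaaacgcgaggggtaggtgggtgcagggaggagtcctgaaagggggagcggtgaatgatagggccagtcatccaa
PC promoter in Hep3B (hg38 chr11:66958770-66958870, − strand): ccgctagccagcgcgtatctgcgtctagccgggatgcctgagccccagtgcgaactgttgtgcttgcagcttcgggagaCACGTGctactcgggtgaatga
Fbp1 upstream in MEFs (mm10 chr13:62919761-62919861, − strand): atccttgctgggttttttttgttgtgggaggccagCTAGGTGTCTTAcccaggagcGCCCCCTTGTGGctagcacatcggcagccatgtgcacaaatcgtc
Pck1 downstream in MEFs (mm10 chr2:173159459-173159559, + strand): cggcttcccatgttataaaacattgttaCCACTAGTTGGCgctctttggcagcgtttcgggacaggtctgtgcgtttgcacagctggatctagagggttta
The Mlxipl run holds 2 matches to the PROX1 consensus, each with 2 mismatches. The PC run holds an E-box, CACGTG. The Fbp1 run holds a PROX1 match with 2 mismatches, followed by a match to the CTCF core. The Pck1 downstream run holds a CTCF match. Both CTCF matches have 1 mismatch. The other 4 runs hold no match.

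In liver, 8 of the 9 genes held a PROX1 summit within 1 kb of one of their starts, where 28.3% of all mouse protein-coding genes did. The exception was Gckr. In MEFs 3 of 9 did (Pcx, Ppargc1a and Mlxipl), against 56.5% of all genes, and in Hep3B 2 of 9 did (PC and PPARGC1A) against 45.2% of human genes. No interval was computed for these counts of 9 genes, so a deficit in the cultures is not established. Promoter peaks in liver and not in MEFs were held by 5 of the 9 genes (Pck1, Fbp1, G6pc, Slc2a2 and Pklr) and by 4.43% of all mouse genes. The opposite, a promoter peak in MEFs and not in liver, was held by none of the 9 and by 32.7% of all mouse genes. Pcx and Ppargc1a, with their human counterparts, had promoter peaks in all 3 lists. When only the 14369 strongest peaks of each list were kept, the number of genes with a promoter peak fell to 4 in liver, against 2 in MEFs and 2 in Hep3B. The share of all genes was not computed for the shortened liver and MEF lists, so these counts have no background to be read against.

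**Figure D1:**
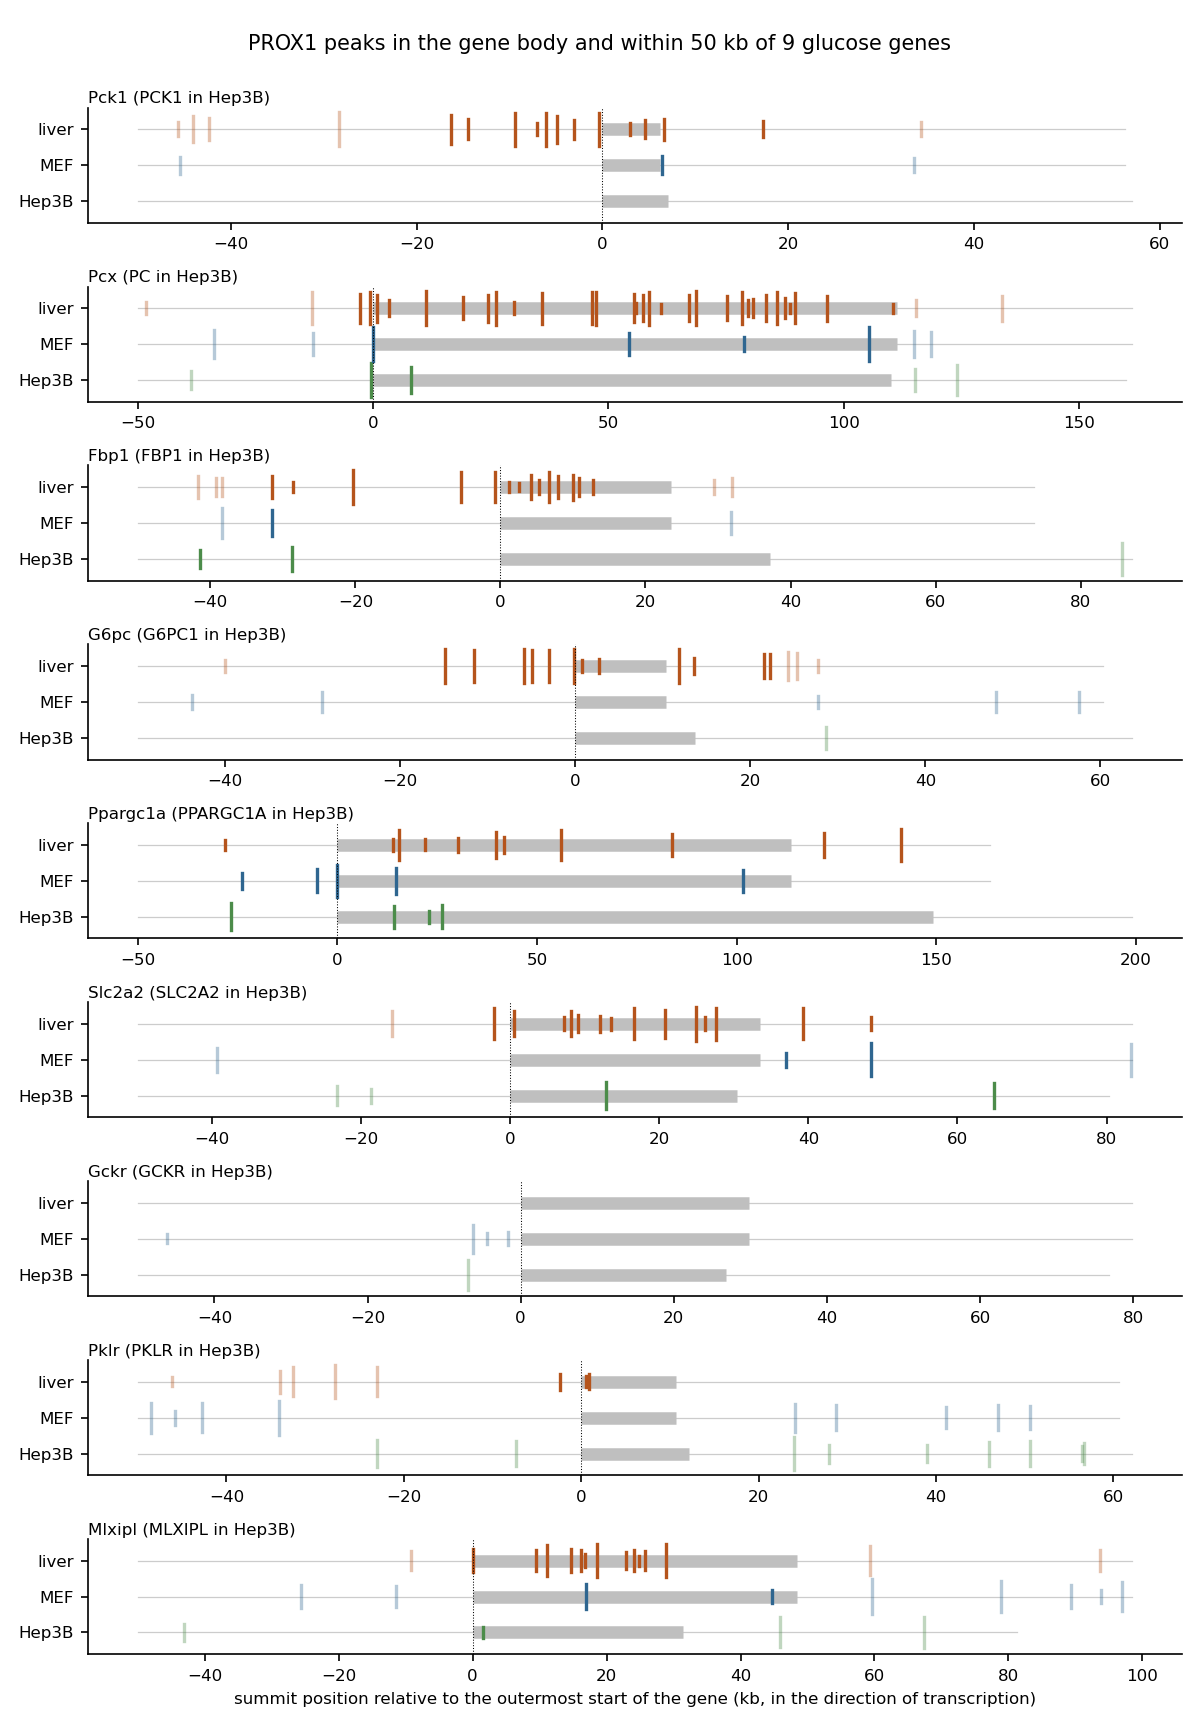
Position of each peak summit (vertical bar) in kb from the outermost start of its gene, with 1 panel per gene and 1 line per list. Bar height grows with the strength of the peak within its list, grey blocks are gene bodies, dark bars are peaks placed at the gene itself and pale bars are peaks of the window nearest to another gene's start. The liver line is dense at Pcx, Pck1, Fbp1, G6pc, Slc2a2 and Mlxipl and empty at Gckr, and no MEF or Hep3B bar lies in the body of G6pc or Fbp1.

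The 4 enzymes of glucose production carried the densest PROX1 occupancy of the set in liver. G6pc encodes the catalytic subunit of glucose-6-phosphatase, which releases free glucose. Its liver promoter peak at chr11:101366644-101368082 had a summit −168 bp from the start, a −log10 p of 24.3 and rank 353 of 50159, stronger than 99.3% of the list. Of the 12 liver peaks placed at G6pc, meaning in its body or nearest to its start among coding genes, 7 were stronger than 90% of the list, and they ran from −14942 bp to 11866 bp around the start. A weaker peak lay in the gene at 798 bp with rank 44731. No peak was placed at G6pc in MEFs or Hep3B. All 5 MEF peaks and the single Hep3B peak of its window lay nearer to other genes, at least 27695 bp (MEF) and 28617 bp (Hep3B) from any G6pc start.

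Pck1 encodes cytosolic phosphoenolpyruvate carboxykinase. In liver its window held 17 peaks, 12 of them placed at the gene. The promoter peak at chr2:173151814-173154271 spanned the start, with the summit at −323 bp, a −log10 p of 19.3 and rank 3278, stronger than 93.5% of the list. A peak at −6012 bp was stronger still, with a −log10 p of 20.2 and rank 2304. The strongest peak of the window lay at −28385 bp in an intron of Ctcflos, with a −log10 p of 23.7 and rank 454, and was nearest to the start of Ctcfl. The MEF window held 3 peaks, none stronger than 34.8% of that list. The only 1 placed at Pck1 lay 6427 bp from a start, with rank 26367 of 40531. The Hep3B list held no peak over 998 kb around PCK1, the nearest summits being 169.9 kb and 821.0 kb away.

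Pcx encodes pyruvate carboxylase, the mitochondrial enzyme that makes oxaloacetate, and has 7 annotated starts over 111 kb. It held the most liver peaks of the set, 34 in the window and 30 at the gene, 28 of them in the gene body. The 4 liver promoter peaks lay at −755, 769, −953 and −343 bp from their nearest starts and were stronger than 90.5%, 71.3%, 95.2% and 68.1% of the list. The strongest liver peak was intronic, with a −log10 p of 20.8 and rank 1794. Pcx was also bound at its outermost start in both cultures. In MEFs a peak of 2472 bp at chr19:4509699-4512170 had its summit at −98 bp and rank 1151, stronger than 97.2% of the list, and it overlapped the liver promoter peaks on either side of the start. In Hep3B the PC promoter peak at chr11:66958162-66959015 had its summit at −434 bp and rank 109 of 14369, stronger than 99.2% of the list. A further MEF peak in the last part of Pcx, rank 1525, lay at the start of Lrfn4.

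Fbp1 encodes the liver form of fructose-1,6-bisphosphatase. Its window held 19 liver peaks, 14 of them at the gene. The strongest lay upstream at −20264 bp (chr13:62907287-62909702), with a −log10 p of 21.3 and rank 1473. The promoter peak at chr13:62888033-62889675 had its summit at −803 bp and rank 7173, stronger than 85.7% of the list. In MEFs the strongest of 3 window peaks lay at −38367 bp, nearest to 2010111I01Rik, and the only peak placed at Fbp1 lay at −31529 bp with rank 12464. In Hep3B 2 peaks were placed at FBP1, at −28749 bp (rank 5438) and −41358 bp (rank 9420), and neither culture had a peak in the gene body. The strongest Hep3B window peak, stronger than 87.6% of the list, was nearest to FBP2.

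Ppargc1a, which encodes the coactivator PGC-1α that drives the gluconeogenic genes in fasting, showed a different order of the lists in its promoter peaks. In liver it held 11 peaks, all placed at the gene, but its only promoter peak lay at an internal start (−15 bp) and was weak, with a −log10 p of 9.06 and rank 44266, stronger than 11.7% of the list. The strongest liver peak lay beyond the end of the gene, 127327 bp from the nearest of its starts, with a −log10 p of 17.9 and rank 5375. In MEFs the outermost start was bound, with the summit at −112 bp, a −log10 p of 7.93 and rank 4824, stronger than 88.1% of the list. A MEF peak at 881 bp from an internal start, rank 12178, overlapped a liver peak of rank 7430 whose summit lay 670 bp away and more than 1 kb from any start. In Hep3B 2 promoter peaks lay at internal starts (17 and 198 bp) with ranks 7229 and 12820, and the strongest peak lay upstream at −26708 bp with rank 4127. Ppargc1a was thus the member whose promoter peak ranked higher in a culture than in liver by the widest margin. This margin rests on the 1 kb limit. The liver peak of rank 7430, 1551 bp from a start, was stronger than 85.2% of the list. By the strongest peak placed at the gene, liver stood at 89.3%, MEFs at 88.1% and Hep3B at 71.2%. The −log10 p values of different lists are not on a common scale.

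Slc2a2 encodes GLUT2, the glucose transporter of hepatocytes and beta cells, and held the strongest peak of the whole set. This liver peak at chr3:28721148-28723318 had a −log10 p of 28.5 and rank 31 of 50159. Ranked by area it stood at 429, after a Pcx intron peak (303) and a G6pc upstream peak (427). The Slc2a2 peak lies in an intron of that gene, 24936 bp past the outermost start and 1322 bp past an internal start. It also lies in an intron of 1700112D23Rik, so its placement is shared with that gene. Another intronic peak, 27553 bp past the outermost start, had rank 4947. The promoter peak at chr3:28697444-28699973 was moderate, with its summit at 427 bp, a −log10 p of 13.4 and rank 19225, stronger than 61.7% of the list. MEFs and Hep3B had no promoter peak at the gene. The strongest MEF peak lay downstream, 24780 bp from a start, with rank 2652. In Hep3B an intronic peak 4648 bp from a start had rank 4391.

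Gckr, which encodes the regulator of glucose phosphorylation, was the only member without a liver peak in its window. At least 1 liver summit lay in the window of 69.2% of all mouse genes. The liver list held no peak between chr5:31241630 and 31409993, a stretch of 168 kb, and the nearest summits lay 56.0 kb upstream and 82.9 kb downstream of the gene. In MEFs, where 81.3% of genes had a summit in the window, Gckr had 4, and all 4 sat at starts of other genes: 1 at Ift172, 2 at Fndc4 and 1 at Nrbp1 and Krtcap3. The Ift172 peak was the strongest, with rank 10398. In Hep3B, where 72% of genes had a summit in the window, GCKR had 1, at the start of IFT172 with rank 2687. No peak in any list was placed at Gckr itself.

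Pklr encodes the liver and red cell form of pyruvate kinase, the last enzyme of glycolysis. Only 3 of its 8 liver window peaks were placed at the gene, and all were weak: ranks 36212, 38744 and 44782, the last 2 within 1 kb of a start (419 and 23 bp). Its strongest liver window peak lay at −27813 bp, rank 3729, nearest to Fdps. In MEFs and Hep3B none of the 9 and 9 window peaks was placed at Pklr, and 8 and 9 of them were promoter peaks of other genes. The strongest were at Fdps in MEFs (rank 740), which encodes farnesyl diphosphate synthase, and at HCN3 in Hep3B (rank 738), which encodes an ion channel.

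Mlxipl encodes ChREBP, the factor that turns on glycolytic and lipogenic genes when glucose is high. In liver 12 of 15 window peaks were in its body. The strongest pair were intronic with ranks 2968 and 2986, and the former is the summit with 2 PROX1 matches printed above. The 3 promoter peaks were weaker. The summit at 10 bp from the outermost start had rank 22563, and those at an internal start had ranks 26593 (−853 bp) and 43085 (−170 bp). The internal start was also bound in MEFs, by a peak of rank 16252 whose summit lay 89 bp from that of the liver peak, and a further MEF peak of rank 33175 lay 960 bp from another start, in a coding exon. The strongest MEF peak of the window, rank 67, was the promoter of the neighbour Tbl2, where the liver peak had rank 10534. In Hep3B the only peak placed at MLXIPL was intronic, 1469 bp from a start, with rank 13225 of 14369, and the strongest window peak was at the start of BCL7B.

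**Figure D2:**
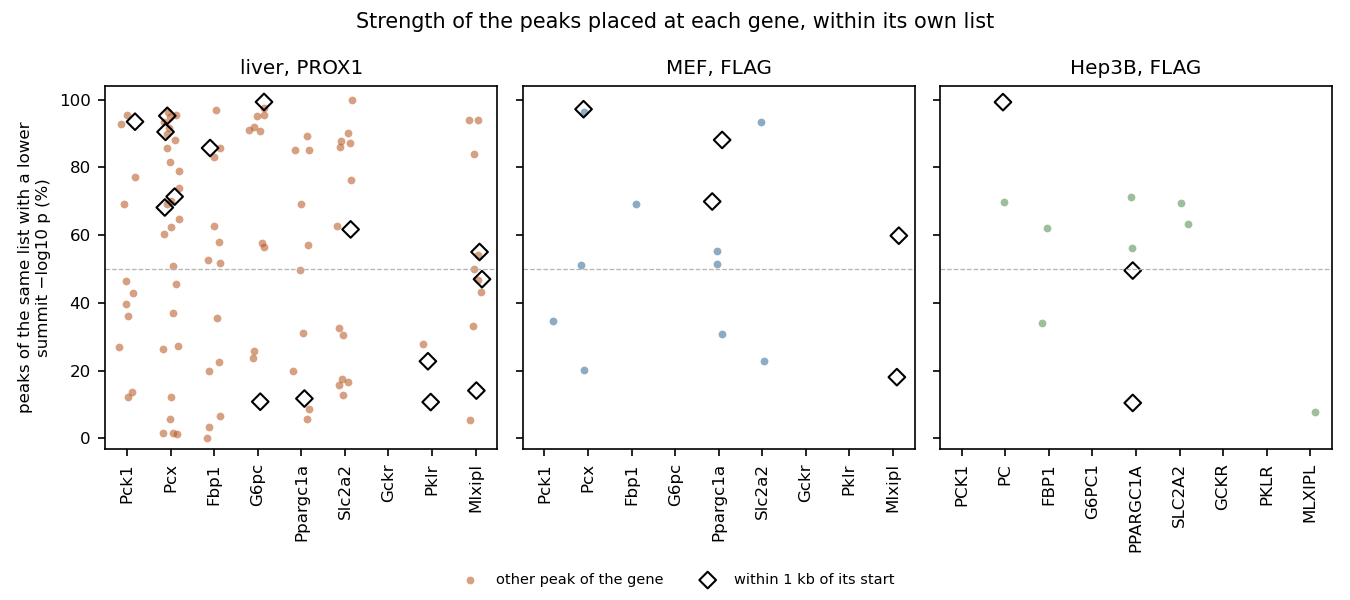
Strength of each peak placed at each gene, as the percentage of its own list with a lower summit −log10 p, for liver, MEFs and Hep3B. Diamonds mark peaks within 1 kb of a start of the gene. G6pc, Pck1, Pcx, Fbp1 and Slc2a2 reach above 95% in liver, Pklr stays below 30%, Gckr has no point in any list, and the diamonds of Pcx and PC stand near the top in both cultures.

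Liver window peaks were placed at the member genes more often than window peaks of all genes were. In liver 108 of 135 window peaks (80%, interval 72.5 to 85.9%) were placed at the member gene, against 15 of 50 in MEFs (30%, 19.1 to 43.8%) and 11 of 31 in Hep3B (35.5%, 21.1 to 53.1%). Over the windows of all protein-coding genes, with a peak counted once for each window that holds it, these shares were 43.6%, 38.6% and 37.3%, and the last 2 fall inside the intervals of the cultures. The genes differed: at Pklr 3 of 8 liver peaks were placed at the gene, whereas at Ppargc1a all 5 MEF peaks and all 4 Hep3B peaks were. By its definition placement depends on gene length and on neighbouring genes, here and in the shares above. The Ppargc1a window holds starts of 0 other coding genes in either species. The Pklr window holds starts of 7 in mouse and 8 in human. Summits within 1 kb of another gene's start made up 6 of 135 in liver (4.44%, 2.05 to 9.36%), 25 of 50 in MEFs (50%, 36.6 to 63.4%) and 14 of 31 in Hep3B (45.2%, 29.2 to 62.2%), and over the windows of all genes 19.0%, 36.4% and 55.8%. The liver share lay below that of all genes and the MEF share above it. In both, the share of all genes lay outside the interval, which ignores that peaks cluster by gene. The Pcx window alone held 34 of the 135 liver peaks. Of the 108 liver peaks placed at the genes, 70 lay in introns, 3 in coding exons, 1 in a noncoding exon and 34 outside the gene body, and 15 lay within 1 kb of a start. Peaks placed at the genes were wider than the list in liver (median 672 bp against 504 bp), with 670 bp against 646 bp in MEFs and 751 bp against 634 bp in Hep3B.

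Most liver windows were dense in peaks. The median window held 15 liver peaks, against 3 over all mouse genes, and 11.2 per 100 kb against 1.85. Pcx (16.1 per 100 kb), Pck1 (16.0), Fbp1 (15.4) and G6pc (14.5) were each denser than at least 96.5% of all genes. Slc2a2 (11.2) and Mlxipl (10.1) followed, denser than 92.0% and 89.7% of genes, then Pklr (7.23, 81.6%) and Ppargc1a (5.15, 72.5%). In MEFs the median was 3.08 per 100 kb against 2.73 over all genes, with Pklr highest at 8.13 and Ppargc1a lowest at 2.34. In Hep3B the median was 2.19 against 0.897, with PKLR highest at 8.03 and PCK1 at 0. The Pklr windows that led in both cultures owed those counts to starts of other genes, as given above. With the 14369 strongest peaks of each list, 47 liver, 19 MEF and 31 Hep3B peaks remained in the windows. Medians over all genes were not computed for the shortened lists.

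**Figure D3:**
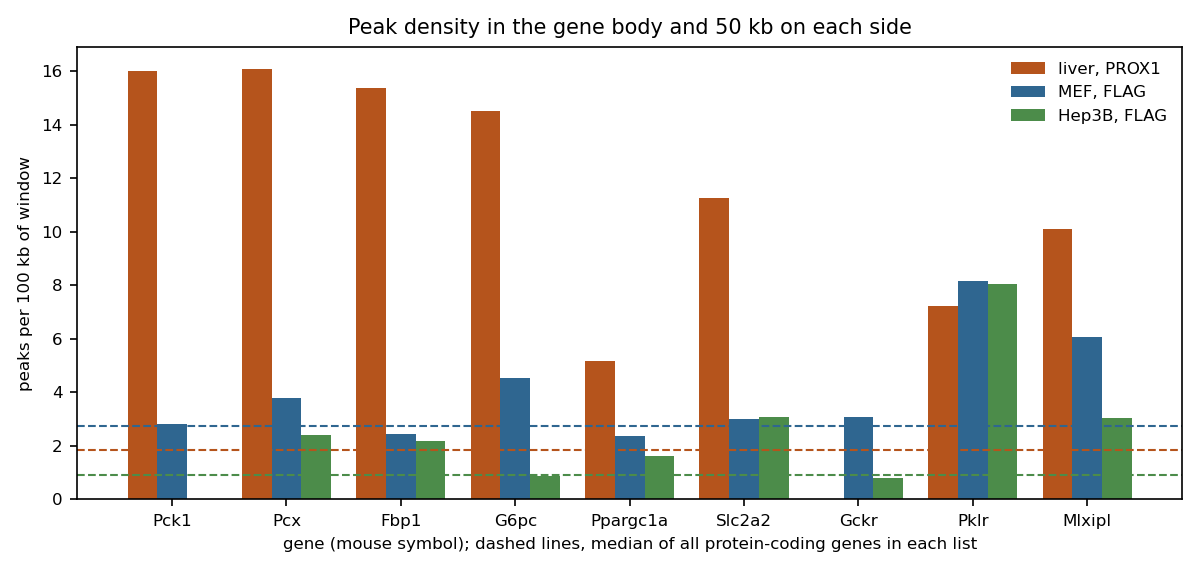
Peaks per 100 kb of window (gene body and 50 kb on each side) for each gene and list, with bars starting at 0 and dashed lines at the median of all protein-coding genes. The liver bars of Pck1, Pcx, Fbp1 and G6pc lie between 14.5 and 16.1 against a median of 1.85, and the MEF bars of all genes except Pklr and Mlxipl lie between 2.34 and 4.53 against a median of 2.73.

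The strongest peak placed at each gene was stronger than a median of 95.9% of the list in liver (8 genes), 78.6% in MEFs (6 genes) and 69.4% in Hep3B (5 genes). These medians rise with the number of peaks per gene. Over all peaks placed at the genes, the median liver peak was stronger than 57.4% of its list, the median MEF peak than 55.4% and the median Hep3B peak than 62.0%. Within liver, 22 of the 108 peaks were stronger than 90% of the list and 47 were weaker than its median. Ranked by the area under the significance curve in place of the summit, the median strongest peak stood at 98.3% in liver, 49.4% in MEFs and 73.2% in Hep3B.

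Sites shared by liver and MEFs were counted from each list. The same overlaps gave 18 liver and 17 MEF peaks. The share in liver is thus the smaller because it is taken of 135 window peaks and that in MEFs of 50. Of the liver window peaks, 18 of 135 (13.3%, interval 8.6 to 20.1%) overlapped a MEF peak by at least 1 bp, and the 18.9% of the whole liver list falls inside that interval. Of the MEF window peaks, 17 of 50 (34%, 22.4 to 47.8%) overlapped a liver peak, and the 21.4% of the MEF list falls below that interval. Among peaks placed at the genes, 8 of 108 liver peaks (7.41%) and 7 of 15 MEF peaks (46.7%) were shared. The 7 MEF peaks lay at Pcx (2), Pck1, Fbp1, Ppargc1a, Slc2a2 and Mlxipl, and G6pc, Gckr and Pklr had none. Shared did not mean equal in strength. The Fbp1 site printed above had summits 24 bp apart and was stronger than 51.8% of the liver list and 69.2% of the MEF list. Ranked by area the order turned, to 39.9% in liver and 5.35% in MEFs. The Slc2a2 downstream site had summits 35 bp apart and stood at 15.8% in liver and 93.5% in MEFs, or by area at 11.3% and 61.7%. When sharing required summits within 100 bp, 5 pairs remained.

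A core motif of CTCF, a zinc-finger protein that anchors chromatin loops, was searched after the sequences of shared sites had been seen. The counts in shared peaks include such sites, so they are not independent of the choice of motif. It was allowed 1 mismatch within 100 bp on each side of the summit. Of the 17 shared MEF window peaks 7 held it (41.2%), where 15.7% of all shared MEF peaks did. Of the 33 MEF window peaks not shared 4 held it (12.1%), where 21.2% of such peaks of the list did. In liver 4 of 18 shared window peaks (22.2%) held it against 12.0% of shared peaks of the list, and 5 of 117 others (4.27%) against 3.29%. Over all window peaks it was found in 9 of 135 in liver (6.67%, list 4.93%), 11 of 50 in MEFs (22%, list 20.0%) and 5 of 31 in Hep3B (16.1%, list 12.9%). Whether CTCF was present at these sites was not tested.

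The searched motifs were about as frequent under the liver peaks of these genes as in the whole liver list. Both strands of the same windows were searched, and matches to different motifs could overlap. The PROX1 consensus with up to 2 mismatches was found in 5 of 135 liver window peaks (3.70%, list 4.2%), at Fbp1 (2 peaks), Pcx, Ppargc1a and Mlxipl. It was found in 1 of 50 in MEFs (list 2.95%) and in 0 of 31 in Hep3B (list 3.00%). In liver a site for HNF4, the hepatocyte nuclear receptor, spelled CAAAGTCCA with 1 mismatch allowed, was found in 22 peaks (16.3%, list 17.7%). The nuclear receptor element AGGTCA was found in 34 (25.2%, list 26.0%). The C/EBP site TTNNGCAA was found in 23 (17.0%, list 16.4%). The CREB site TGACGTCA with 1 mismatch allowed was found in 9 (6.67%, list 6.54%). The FOXA core TGTTTAC was found in 6 (4.44%, list 6.26%), the E-box CACGTG in 6 (4.44%, list 3.27%) and the ONECUT core ATCGAT in 2 (1.48%, list 2.05%). In MEFs HNF4 and C/EBP sites were found in 2 of 50 peaks each (4%, lists 6.10% and 7.46%), the AGGTCA element in 7 (14%, list 11.3%), the CREB site and the E-box in 3 each (6%, lists 7.30% and 4.75%), the FOXA core in 2 (4%, list 2.61%) and the ONECUT core in none (list 0.656%). In Hep3B the AGGTCA element was found in 6 of 31 peaks (19.4%, list 9.77%), the CREB site in 5 (16.1%, list 8.08%) and the E-box in 4 (12.9%, list 6.03%), including the PC promoter summit. The C/EBP site was found in 3 Hep3B peaks (9.68%, list 7.77%), and the HNF4, FOXA and ONECUT motifs in none (lists 5.50%, 4.05% and 0.647%). A match describes the letters of the window and not an occupied site.

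The wider pathway was read from 63 further genes of glucose handling. Promoter peaks were found at 48 of them in liver (76.2%), 53 in MEFs (84.1%) and 41 in Hep3B (65.1%), all above the shares of all genes given earlier, and at 31 in all 3 lists. Across the lists, human and mouse genes were paired by symbol or by the gene lists used here, and 23.3% of 15745 paired genes had promoter peaks in all 3. The 9 genes stood at 88.9%, 33.3% and 22.2%. In liver the groups ranged from 12 of 19 glycolysis genes to 8 of 8 glycogen genes. In MEFs they ranged from 8 of 11 other glucose production genes to 5 of 5 targets of the glucose response. The strongest liver promoter peaks belonged to Sik1 (stronger than 99.0% of the list), a kinase that restrains CREB coactivators, Got1 (98.2%), an aspartate aminotransferase of the malate-aspartate shuttle, and Ppp1r3b (97.2%), a glycogen-targeting phosphatase subunit. In MEFs they belonged to Srebf1 (99.5%), which encodes SREBP1, Mdh1 (99.1%), a cytosolic malate dehydrogenase, and Acly (98.3%), ATP citrate lyase. In Hep3B they belonged to ALDOA (98.4%), an aldolase, GYS1 (98.1%), the muscle-type glycogen synthase, and ACLY (95.4%).

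A promoter peak in liver and in neither culture was found at 5 of the 63 genes, at 5 of the 9 and at 3.44% of the paired genes. The former were Pfkfb1 (stronger than 86.4% of the liver list), the liver bifunctional enzyme of fructose 2,6-bisphosphate, Slc2a5 (86.2%), a fructose transporter, Gys2 (90.2%), the liver glycogen synthase, Gcgr (37.3%), the glucagon receptor, and Hnf4a (53.2%), a hepatocyte transcription factor. In the reverse direction, 8 of the 63, 0 of the 9 and 23.3% of the paired genes had a promoter peak in both cultures and not in liver. No promoter peak in any list was found at 3 of the 63, G6pc2, Gpd1 and Hk3, which were named after their values were seen, and at 22.9% of the paired genes. None of the 63 lacked a summit in the window of all 3 lists.

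**Figure D4:**
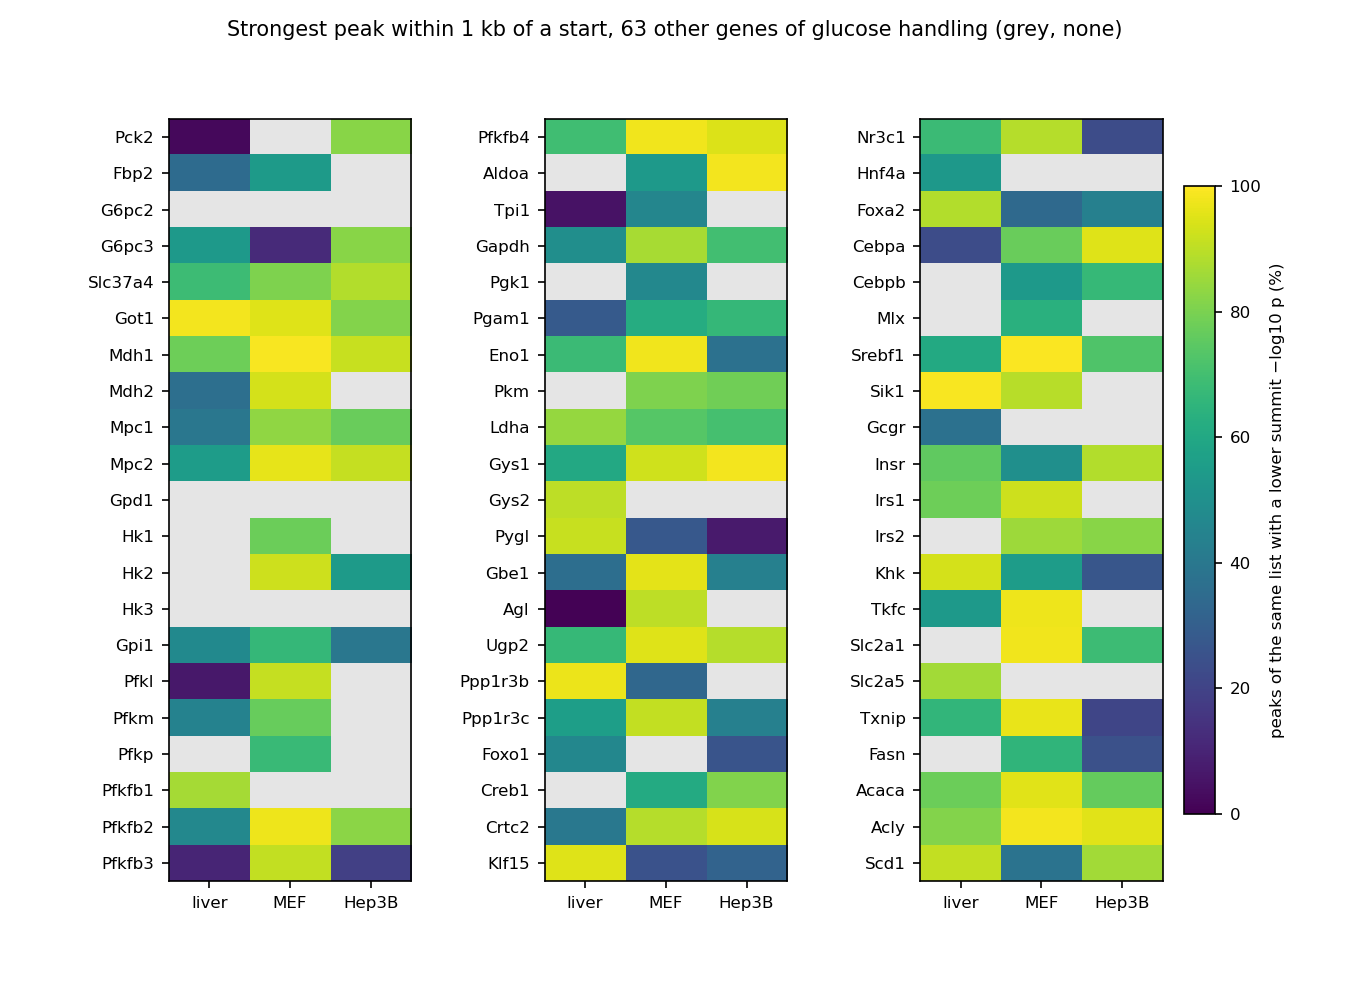
Strength of the strongest peak within 1 kb of a start for 63 further genes of glucose handling in liver, MEFs and Hep3B, as the percentage of the list with a lower summit −log10 p, and grey where no such peak was listed. The 5 genes with colour in liver and grey in both cultures are Pfkfb1, Gys2, Hnf4a, Gcgr and Slc2a5.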

How the data were processed

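CUT&RUN was measured in 22 samples, grouped by their labels. According to the submitters' notes, reads were aligned to mm10 or hg38 with Bowtie2 2.4.2, and consensus peaks were called over the replicates with Genrich 0.6.1. The study describes its sites as called against IgG, but no control library is part of the published command, so the way IgG was used is not given in the sources used here. Each list deposited by the authors gives per peak a score (capped, used only to describe the lists), a signal (the area under the significance curve), the −log10 p and −log10 q of the summit, and a summit offset. The authors did not normalise these values between lists. The smallest area is 500 in the liver list and 200 in either culture list, and 5 liver but 3 MEF and 3 Hep3B samples entered the lists. Depth per sample is unknown and limits the precision of every count.

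Summits were placed on GENCODE M21 and GENCODE 44 genes with Python 3.11.15 and pandas 2.3.3. Promoters were 1 kb on each side of any annotated start. A peak was placed at a gene when its summit lay in the body or nearest to its start among coding genes. Peaks overlapping by at least 1 bp were shared. Motifs were searched within 100 bp on each side of the summit. No test was run, since each group is 1 pooled list, and the counting was tested on simulated peaks. The genes, the pathway list and the motifs were chosen with earlier results of these data known, and some genes of the pathway list are not reported here. All 9 genes are named in every list, a neighbour where its start holds the strongest peak of a window, and pathway genes by their 3 strongest promoter peaks per list, by promoter peaks in liver and neither culture, or by the lack of any summit. Other genes named (Ctcflos, Ctcfl, Lrfn4, 1700112D23Rik, 2010111I01Rik, Fndc4, Nrbp1, Krtcap3, FBP2, G6pc2, Gpd1, Hk3 and the isoforms in the closing section) were chosen after their values were seen. Alternatives were other windows, promoter definitions, q-value and area limits, equal list lengths, ranking by area, stricter sharing, and other motif windows and mismatches.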

Additional observations from a re-analysis of the deposited data

How the results depend on the processing

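No paired analysis was possible because each list pools the replicates of its group, and no replicate could be left out for the same reason. Among the values that answer a comparison, 48 of the alternatives stayed close to the reported value and 29 did not. Among the others 25 did and 42 did not. A count stayed close by its fold change, but a rank only inside a counting interval over its whole list. The strongest G6pc liver peak, at 99.3% and by area at 99.1%, was thus called not close. Liver peaks placed at the genes, 108 and with the body alone 74, were called close. The tallies therefore do not measure the size of the changes. Peaks in the windows were 18 in MEFs and 10 in Hep3B with 10 kb around the gene, 91 and 53 with 100 kb, 22 and 11 with an area of at least 500, and 47 in liver and 19 in MEFs with the 14369 strongest peaks per list. Genes with a promoter peak fell to 4 in liver with equal lists, and to 1 in Hep3B with the outermost start alone or an area of at least 500. The share of all genes was not computed for these changed settings, so the counts have no background. Shared window peaks were 5 of either list with summits within 100 bp, 9 in liver and 8 in MEFs with an area of at least 500, and 3 of either list with equal lists. The median strongest peak, ranked by area, stood at 98.3% in liver, 49.4% in MEFs and 73.2% in Hep3B. Peaks placed at the genes were 7 in MEFs and 6 in Hep3B when only the body counted. The PROX1 consensus was found in 9 liver and 2 Hep3B window peaks within 200 bp on each side of the summit, in 0 of liver and MEF peaks with 1 mismatch, and in 43, 17 and 8 peaks of liver, MEFs and Hep3B with 3 mismatches. The cause of these changes was not tested beyond the fewer or more peaks that each setting admits. A gene without a peak is a gene without a listed peak at an unknown depth.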

Other observations

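Several steps of glucose handling are run by a liver form of an enzyme or transporter and by a form used more widely, and the promoter peaks of such pairs were read after their values had been seen. For pyruvate kinase, Pklr had a promoter peak in liver alone, stronger than 22.8% of the list, and Pkm, its counterpart in most other tissues, stood at 80.5% in MEFs and 78.4% in Hep3B with none in liver. For glucose transport, Slc2a2 stood at 61.7% in liver alone, and Slc2a1, which encodes the widely expressed GLUT1, stood at 97.9% in MEFs and 68.4% in Hep3B with none in liver. For glycogen synthase, Gys2 stood at 90.2% in liver alone, while Gys1 had promoter peaks in all 3 lists, at 60.4% in liver, 92.8% in MEFs and 98.1% in Hep3B.

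Other forms read split in part or not at all. For phosphofructokinase, the liver form Pfkl stood at 6.48% in liver and 91.2% in MEFs, the muscle form Pfkm at 44.3% and 76.8%, and Pfkp had none in liver and 67.6% in MEFs, with no promoter peak of any of them in Hep3B. Pck1, Fbp1 and G6pc had promoter peaks in liver alone, at 93.5%, 85.7% and 99.3%. As with Gys1, their counterparts also had a promoter peak in liver. The mitochondrial Pck2 stood at 2.24% in liver and 82.0% in Hep3B, with no promoter peak in MEFs. The muscle form Fbp2 stood at 35.0% in liver and 54.3% in MEFs. G6pc3, the ubiquitous glucose-6-phosphatase, had promoter peaks in all 3 lists, at 53.8% in liver, 11.8% in MEFs and 82.2% in Hep3B. G6pc and G6pc3 thus had the same pattern of presence as Gys2 and Gys1. Promoter peaks in MEFs were held by 56.5% of all mouse genes, so their presence at widely used forms is not particular to these pairs.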
